A study of Mus musculus with 9 samples.

Results

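The genes described here encode the subunits of the oxidative phosphorylation (OXPHOS) machinery, complexes I to V of the inner mitochondrial membrane. A gene was taken when its symbol in the deposited table of either comparison began with Nduf (complex I), was Sdha, Sdhb, Sdhc or Sdhd (complex II), or began with Uqcr (complex III), Cox4 to Cox8 (complex IV) or Atp5 (complex V). This gave 84 of the 33224 genes of the series, of which 37 belonged to complex I, 4 to complex II, 7 to complex III, 19 to complex IV and 17 to complex V. The rule used names alone, and 4 of the 84 are no subunits of a complex. Cox4nb, now named Emc8, encodes a subunit of a membrane complex of the endoplasmic reticulum, Ndufaf1 an assembly factor of complex I, and Atp5s and Atp5sl are now named Dmac2l and Dmac2.

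Complexes I and II pass electrons from NADH and succinate to ubiquinone, complex III passes them on to cytochrome c, and complex IV to oxygen. Complexes I, III and IV pump protons as they do so, and complex V, the ATP synthase, uses the gradient to make ATP. Most subunits are encoded in the nucleus, and the transcription factors NRF1, GABPA (NRF2, an ETS factor) and YY1 are known to bind promoters of many of these genes. Mouse embryonic stem (ES) cells, which are pluripotent cells of the early embryo, use both glycolysis and respiration.

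RNA was measured on 9 Illumina beadchip arrays. The Wdr5 knockdown (3 arrays) was a single rescue clone named Wdr5R4, kept without doxycycline and described in its label as carrying a short hairpin RNA (shRNA) against Wdr5, a subunit of histone H3 lysine 4 methyltransferase complexes. It was set against a luciferase control with doxycycline (LucR, 2 arrays), and both were derived from Aniv15 ES cells, which express the reverse tetracycline transactivator rtTA. The Oct4 knockdown (2 arrays) expressed an shRNA against Oct4 (gene symbol Pou5f1), a transcription factor of pluripotency, and was set against cells with an shRNA against GFP (2 arrays). Those cells were of the CCE or E14T line, and which of these was used for which array is not stated. Feeder layers of primary mouse embryonic fibroblasts and LIF were used throughout, and the growth text lists doxycycline for every sample, against the label of the Wdr5 knockdown. The Wdr5 knockdown and its control thus differed by label in clone, shRNA and doxycycline, a drug that also blocks mitochondrial protein synthesis, and these cannot be told apart. Nothing in the labels says whether replicates came from separate cultures, so p-values measure the spread between these samples, which may be technical.

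The intensity of the Wdr5 probe was 464, 459 and 427 in the Wdr5 knockdown, against 988 and 1097 in the luciferase control. That of the Pou5f1 probe was 297 and 305 in the Oct4 knockdown, against 4609 and 4137 with the GFP shRNA. After the normalization described below, Wdr5 was 1.94-fold lower (log2 change -0.96) and Pou5f1 4.85-fold lower (log2 change -2.28). Array means of the deposited intensities were 375 to 429 in the Wdr5 knockdown, against 448 to 518 in its control, and 110 to 111 in the Oct4 knockdown, against 278 to 344 in its control. Summed over the detected members of a list of 12 ES cell markers, intensities were 27771 to 30946 in the Wdr5 knockdown, against 62740 to 70363 with luciferase, and 3985 to 4485 in the Oct4 knockdown, against 38039 to 52012 with GFP. All values below are log2 signals after background correction and quantile normalization within a comparison, so each change is relative to the other genes on the arrays. In bulk RNA, fewer cells of a type and less RNA per cell cannot be told apart.

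The promoters of several members are shown first. Most of these carry the letters by which the known regulators of this gene family are recognised. They belong to members that fell and to 1 that did not pass the test. These promoters were picked by hand, so the share of them with such letters does not stand for all members. Windows of 250 bases before to 50 bases after the transcription start (RefSeq, mouse build GRCm38.p6) were given for 69 of the 84 members. Both strands were searched for GCGC, any base and TGCGC in a row (NRF1), CCGGAAG (the ETS motif read by GABPA) and AANATGGCG (YY1). The 150 bases before the start are printed in the direction of the gene, with NRF1 and ETS matches in capitals on either strand.
Ndufa8, chr2:36049339-36049488, minus strand: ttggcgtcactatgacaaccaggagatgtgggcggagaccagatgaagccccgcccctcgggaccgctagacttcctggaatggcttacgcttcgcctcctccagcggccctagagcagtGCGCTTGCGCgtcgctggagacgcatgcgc
Ndufb4, chr16:37654369-37654518, minus strand: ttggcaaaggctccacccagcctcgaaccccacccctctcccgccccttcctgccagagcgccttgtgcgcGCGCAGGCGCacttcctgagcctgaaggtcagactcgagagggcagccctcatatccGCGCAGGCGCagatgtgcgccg
Ndufs3, chr2:90904722-90904871, minus strand: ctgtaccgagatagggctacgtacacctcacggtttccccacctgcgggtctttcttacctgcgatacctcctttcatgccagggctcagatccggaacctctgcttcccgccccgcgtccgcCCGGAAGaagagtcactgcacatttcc
Uqcrh, chr4:116075071-116075220, minus strand: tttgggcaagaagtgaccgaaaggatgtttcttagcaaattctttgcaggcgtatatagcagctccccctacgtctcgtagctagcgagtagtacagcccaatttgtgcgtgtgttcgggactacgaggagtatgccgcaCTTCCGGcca
Cox6a1, chr5:115348959-115349108, minus strand: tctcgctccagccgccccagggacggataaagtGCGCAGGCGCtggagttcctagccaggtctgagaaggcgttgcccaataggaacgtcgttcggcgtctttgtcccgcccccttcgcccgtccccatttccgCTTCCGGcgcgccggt
Sdhd, chr9:50603850-50603999, minus strand: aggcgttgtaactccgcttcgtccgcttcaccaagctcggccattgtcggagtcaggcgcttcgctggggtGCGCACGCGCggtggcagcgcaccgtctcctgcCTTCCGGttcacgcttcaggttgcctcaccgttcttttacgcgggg
Atp5f1, chr3:105959264-105959413, minus strand: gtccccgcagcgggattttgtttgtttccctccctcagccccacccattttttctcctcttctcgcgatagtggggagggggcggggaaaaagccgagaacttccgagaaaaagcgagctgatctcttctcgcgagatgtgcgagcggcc
Cox7a2l, chr17:83514334-83514483, minus strand: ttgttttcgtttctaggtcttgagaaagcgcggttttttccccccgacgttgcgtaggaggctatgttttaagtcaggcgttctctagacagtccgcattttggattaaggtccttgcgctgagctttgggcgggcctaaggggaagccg
Ndufa8 held 1 NRF1 match, beginning 30 bases before the start, and Ndufb4 held 2 in this stretch, 79 and 22 bases before it. The ETS letters began 27 bases before the start of Ndufs3 and 10 bases before that of Uqcrh. Cox6a1 and Sdhd held both motifs, and the stretches of Atp5f1 and Cox7a2l held neither, which says only that these letters are not in this window.

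Over the whole windows the NRF1 letters were found in 16 of 69 members (23.2%), against 6.60% of 17492 protein-coding genes. The ETS letters were found in 16 members (23.2%), against 11.9% of protein-coding genes, and the YY1 letters in 9 (13.0%), against 3.30%. Among members that fell in the Wdr5 knockdown, 13 of 45 with a window held the ETS letters, 8 the NRF1 letters and 6 the YY1 letters. Among the 14 tested members with a window that did not fall, 1 held the ETS letters, 4 the NRF1 letters and 3 the YY1 letters. These shares are descriptions of letters in windows and were not tested.

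In the Wdr5 knockdown, genes of all 5 complexes were lower than in the luciferase control. Of the 77 members with a probe in that table, 69 were detected on at least 2 arrays and tested, and 55 of these (79.7%) fell, 3 rose and 11 were not called (limma, adjusted p below 0.05 over 10119 genes). Of all genes tested, 30.5% fell and 38.2% rose. The median change was -0.61 on the log2 scale over the members, and 0.10 over all genes. At least 2-fold falls were seen for 16 members, against 9.63% of all genes, and no member rose 2-fold, against 11.3%.

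For 2 of the 55, Ndufb11 and Cox6a2, no knockdown array was above background, so that they could enter only through the luciferase arrays. Among the 67 members above background in both groups 53 fell and 3 rose, where 29.7% of 9362 such genes fell and 37.8% rose. The members are bright, and among genes with a mean log2 signal of at least 10, a limit chosen after seeing the data, 36 of 45 members fell, against 32.2% of such genes. Across the 69 members the change was only weakly related to the mean signal (Pearson's r = 0.05, Spearman's rho = 0.13, a description across genes that share arrays). The median deposited intensity of the tested members, before any normalization, was 1647, 1570 and 1462 on the knockdown arrays, against 2533 and 3031 on the luciferase arrays. In the Oct4 set it was 904 and 849 in the knockdown, against 3311 and 2420 with GFP. Array means were also lower in both knockdowns, so these medians cannot be told apart from array brightness.

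**Figure D1:**
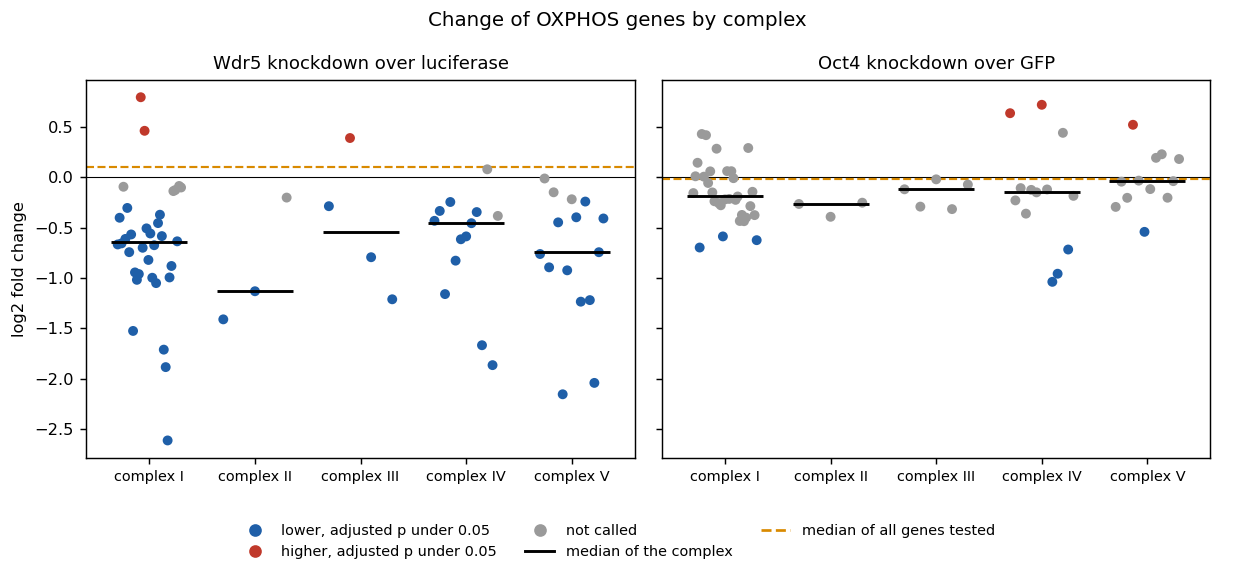
Each point is 1 tested gene, placed by complex (horizontal axis) and by its log2 fold change (vertical axis) for the Wdr5 knockdown over luciferase (left) and the Oct4 knockdown over GFP (right); black bars are medians of a complex and the dashed line is the median of all genes tested. Medians of the complexes lie between -1.13 and -0.45 on the left and between -0.26 and -0.04 on the right.

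Complex I, the NADH dehydrogenase, had 34 tested members, of which 27 fell, 2 rose and 5 were not called, with a median change of -0.65. Ndufc2, an accessory subunit of the membrane arm, had 10.01, 10.18 and 9.97 in the knockdown, against 11.86 and 12.01 with luciferase (change -1.89 ± 0.10 in log2 with its standard error, limma adjusted p = 3.34e-05). Its partner in the same arm, Ndufc1, had 10.75, 10.71 and 10.73 in the knockdown, against 12.37 and 12.51 with luciferase (change -1.71 ± 0.07, adjusted p = 2.12e-05). The groups did not overlap for either gene, as was the case for 79.1% of all genes tested.

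The core of complex I, which carries the flavin and the iron-sulphur clusters, did not move as 1 block. Ndufs3 fell and had 9.78, 9.75 and 9.78 in the knockdown, against 10.76 and 10.77 with luciferase (change -0.99 ± 0.06, adjusted p = 6.53e-05). Ndufs8, which binds iron-sulphur clusters, fell as well and had 10.66, 10.67 and 10.71 in the knockdown, against 11.27 and 11.36 with luciferase (change -0.64 ± 0.07, adjusted p = 0.000457). The flavin-binding subunit Ndufv1 and the cluster-binding Ndufv2 and Ndufs7 were not called, with changes of -0.08 ± 0.08, -0.10 ± 0.07 and -0.12 ± 0.09. Ndufv1 for instance had 11.80, 11.97 and 11.90 in the knockdown, against 11.98 and 11.97 with luciferase, so that the highest knockdown array nearly met the control arrays. Ndufs1, another core subunit, was not above background on 2 arrays.

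Among the accessory subunits, 11 of 12 Ndufa genes fell, with changes of -1.53 (Ndufa6) to -0.30 (Ndufa3). Ndufa13, also called Grim19, was not called (change -0.09 ± 0.07). Ndufa4, named for complex I and now assigned to complex IV, had 12.67, 12.69 and 12.66 in the knockdown, against 13.41 and 13.42 with luciferase (change -0.74 ± 0.06, adjusted p = 0.000179). Of the 10 Ndufb genes of the membrane arm 9 fell, with changes of -1.05 (Ndufb6) to -0.37 (Ndufb8), and Ndufb11 was at least 1.14-fold lower in the knockdown. The tenth, Ndufb10, rose, at 8.94, 9.01 and 9.18 in the knockdown, against 8.60 and 8.56 with luciferase (change 0.46 ± 0.09, adjusted p = 0.0052). Ndufab1, the mitochondrial acyl carrier protein, rose as well and was dim, at 6.35, 6.53 and 6.50 in the knockdown, against 5.61 and 5.71 with luciferase (change 0.80 ± 0.09, adjusted p = 0.000437). The accessory subunit Ndufs4 fell by all 4 of its probes (-0.55 to -1.74), Ndufs6 was not called (-0.14 ± 0.07), and the assembly factor Ndufaf1 fell (-0.70 ± 0.09).

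Complex II, the succinate dehydrogenase, is also an enzyme of the tricarboxylic acid (TCA) cycle. Sdhb, its iron-sulphur subunit, had 8.40, 8.84 and 8.61 in the knockdown, against 10.07 and 9.99 with luciferase (change -1.41 ± 0.14, adjusted p = 0.000274), and its second probe gave -1.46. Sdhc, 1 of the membrane anchors, had 10.79, 10.94 and 10.71 in the knockdown, against 11.92 and 11.97 with luciferase (change -1.13 ± 0.09, adjusted p = 0.000126). The other anchor, Sdhd, had 7.73, 7.81 and 7.97 in the knockdown, against 7.95 and 8.13 with luciferase. Its groups overlapped and it was not called (-0.20 ± 0.10, adjusted p = 0.131), while Sdha, the flavoprotein, had no probe by that symbol in this table.

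In complex III 3 of 4 tested members fell. Uqcrh, the hinge protein near cytochrome c1, had 11.83, 11.80 and 11.85 in the knockdown, against 13.01 and 13.07 with luciferase (change -1.21 ± 0.07, adjusted p = 4.09e-05). The core proteins moved in opposite directions. Uqcrc2 had 11.86, 11.96 and 11.91 in the knockdown, against 12.64 and 12.76 with luciferase (change -0.79 ± 0.08, adjusted p = 0.000264). Uqcrc1 rose, at 11.75, 11.73 and 11.71 in the knockdown, against 11.32 and 11.35 with luciferase (change 0.39 ± 0.06, adjusted p = 0.00237). The small subunit Uqcr, now Uqcr11, fell (-0.29 ± 0.07), and Uqcrfs1 (the Rieske protein) and Uqcrq were not above background on 2 arrays.

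Complex IV, the cytochrome c oxidase, had 13 tested members, of which 11 fell and 2 were not called, with a median change of -0.45. Cox7a2l, known for its part in joining complexes III and IV into supercomplexes, had 9.26, 9.31 and 9.13 in the knockdown, against 11.11 and 11.09 with luciferase (change -1.87 ± 0.08, adjusted p = 2.16e-05). Cox7a1, the isoform known from heart and muscle, had 8.44, 8.68 and 8.50 in the knockdown, against 10.20 and 10.22 with luciferase (change -1.67 ± 0.09, adjusted p = 4.35e-05). Its ubiquitous counterpart Cox7a2 had 8.63, 8.79 and 8.78 in the knockdown, against 8.71 and 8.59 with luciferase. The Cox7a2 groups overlapped, with a change of 0.08 ± 0.09 (adjusted p = 0.43), so that the 3 related genes did not move together.

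Cox5a, which with Cox4 belongs to the first assembled part of the enzyme, had 12.30, 12.30 and 12.32 in the knockdown, against 13.46 and 13.47 with luciferase (change -1.16 ± 0.06, adjusted p = 4.09e-05). Cox4i1 itself had 13.12, 13.05 and 13.16 in the knockdown, against 13.51 and 13.57 with luciferase (change -0.43 ± 0.07, adjusted p = 0.0026). Cox6a1 (-0.83 ± 0.06), Cox6b1 (-0.59 ± 0.07), the isoform Cox6b2 known from testis (-0.45 ± 0.08), Cox6c (-0.34 ± 0.09) and Cox5b (-0.24 ± 0.08) also fell, and Cox7b was not called (-0.38 ± 0.16). Cox6a2, the muscle isoform, was below background in the knockdown and at least 1.05-fold lower there. Cox4nb, which is no subunit, gave opposite calls on its 2 probes, -0.33 on the brighter and 0.87 on the other.

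Complex V had 15 tested members, of which 12 fell and 3 were not called, with a median change of -0.74. All 4 tested genes of its peripheral stalk, which holds the catalytic head still, fell. Atp5f1 (subunit b, now Atp5pb) had 9.01, 8.88 and 8.81 in the knockdown, against 11.01 and 11.10 with luciferase (change -2.16 ± 0.09, adjusted p = 1.99e-05) or 4.46-fold. Atp5o (the oligomycin sensitivity protein) had 7.04, 6.96 and 6.83 in the knockdown, against 8.91 and 9.06 with luciferase (change -2.04 ± 0.09, adjusted p = 2.51e-05). Atp5j (coupling factor 6) had 11.95, 12.02 and 11.95 in the knockdown, against 13.23 and 13.19 with luciferase (change -1.24 ± 0.07, adjusted p = 4.09e-05), but its second, dimmer probe gave -0.16 and was not called. Atp5h (subunit d) changed by -0.40 ± 0.06.

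The catalytic head was mixed. Atp5b, the catalytic beta subunit, had 14.84, 14.83 and 14.83 in the knockdown, against 14.74 and 14.95 with luciferase, an overlap of the groups with a change of -0.01 ± 0.09 (adjusted p = 0.923). Its partner Atp5a1 (alpha) had 10.15, 10.09 and 10.31 in the knockdown, against 10.99 and 10.90 with luciferase (change -0.76 ± 0.09, adjusted p = 0.000651). The gamma subunit gene Atp5c1 fell (-0.89 ± 0.07), Atp5e (epsilon) fell (-0.45 ± 0.10) and Atp5d (delta) was not called (-0.15 ± 0.07). Of the genes for the identical c subunit of the rotor ring, Atp5g2 had 10.32, 10.44 and 10.24 in the knockdown, against 11.33 and 11.18 with luciferase (change -0.92 ± 0.09, adjusted p = 0.000315). Atp5g3 had 14.25, 14.35 and 14.25 in the knockdown, against 14.57 and 14.43 with luciferase and missed the threshold (-0.22 ± 0.08, adjusted p = 0.0527). Atp5l (subunit g), Atp5j2 (subunit f), Atp5s and Atp5sl also fell, with changes of -1.22 ± 0.07, -0.24 ± 0.07, -0.74 ± 0.10 and -0.41 ± 0.10 in that order.

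**Figure D2:**
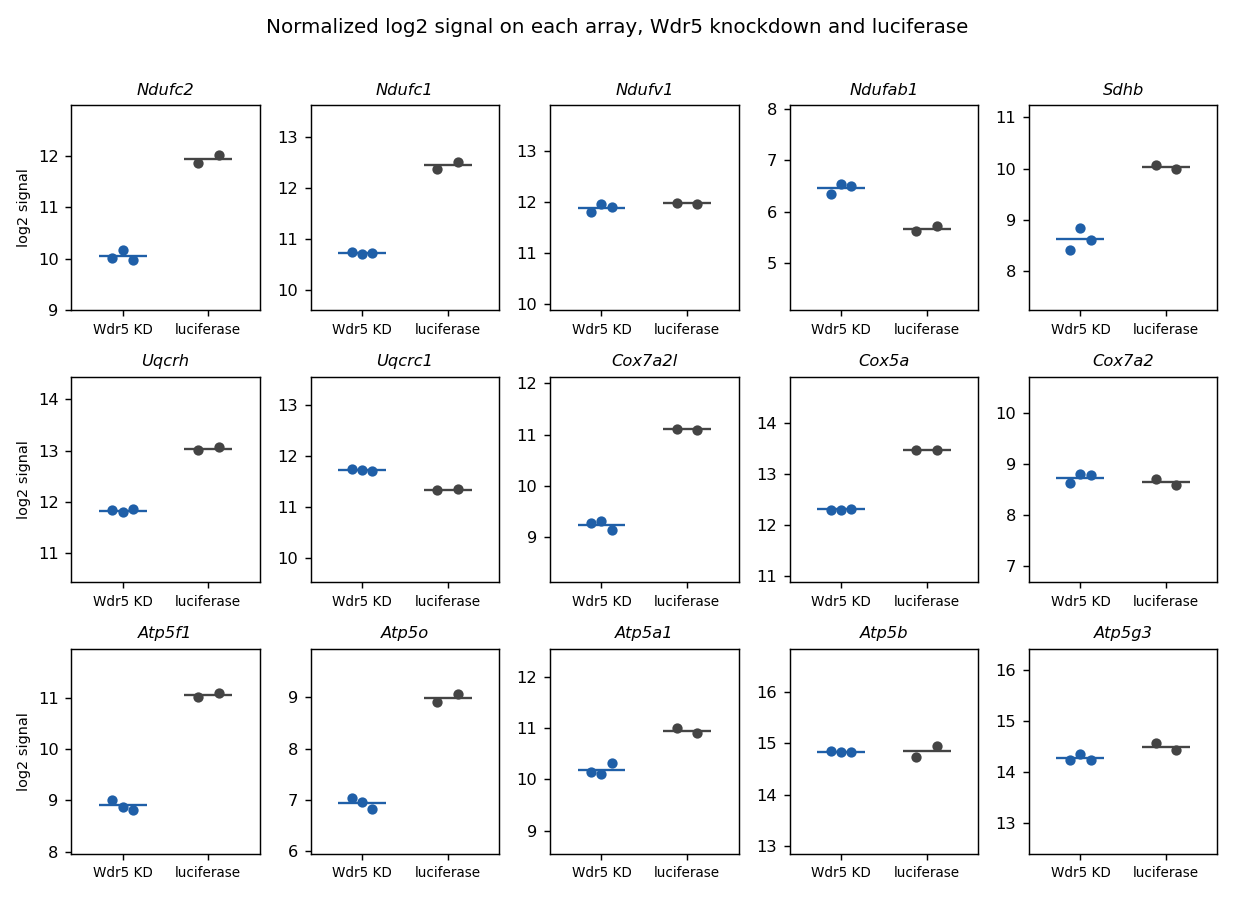
Normalized log2 signal (vertical axes, of equal span but different start) of 15 members on each Wdr5 knockdown (KD) and luciferase array; points are arrays and bars are group means. The 3 knockdown arrays of Atp5f1 (8.81 to 9.01) lie below both luciferase arrays (11.01 and 11.10), while those of Atp5b (14.83 to 14.84) lie between its luciferase arrays.

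Several kept probes were available for 12 members in this comparison. For 8 of these all probes fell, for 3 (Ndufa5, Ndufb11 and Atp5j) only 1 of the probes was called, and for Cox4nb the calls were opposite. In the authors' deposited table, 57 of the 69 probes used here were lower at an adjusted p below 0.05 and 3 were higher, with a median log2 fold change of -0.50. Of all 25697 probes there, 18.1% were lower, a share that includes undetected probes and so is no like background for the members. How many of all probes were higher was not counted. In the authors' deposited table Atp5f1 stood at -1.75 and Cox7a2l at -1.57.

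Genes that work beside the complexes were counted from lists of textbook members, to be read against the 30.5% of all genes that fell and the 38.2% that rose. Of 9 tested carriers and subunits whose names the rule did not take, 6 fell and 1 rose. Cyc1, the cytochrome c1 of complex III, changed by -1.37, Dhodh, which feeds electrons to ubiquinone, by -1.50, and Etfa, of the electron transfer flavoprotein, by -1.31. Cycs, the mobile cytochrome c, rose (1.23). Of 37 assembly factors 18 fell and 9 rose, led by the complex II factors Sdhaf3 (-1.60) and Sdhaf4 (-1.31) and the complex IV factor Coa3 (-1.22). The median change was -0.24 over the assembly factors, and 0.10 over all genes.

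Among 17 regulators of mitochondrial DNA and transcription 9 fell and 2 rose. Tfam, which packages mitochondrial DNA, changed by -1.73, the mitochondrial elongation factor gene Tefm by -1.18 and the ribosomal RNA methyltransferase gene Tfb1m by -1.16. Of the factors whose motifs are described above, Nrf1 rose (0.87), Gabpa was not called (0.23) and Gabpb1, which encodes its partner, fell (-0.85). Nrf1 and the Gabp genes are named because of those motifs, with their values known.

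Of 20 genes of the TCA cycle and pyruvate dehydrogenase 11 fell and 4 rose. Pdk1 and Pdk4, kinases that switch pyruvate dehydrogenase off, changed by -2.12 and -1.39, and Suclg2, a succinyl-CoA ligase subunit gene, by -1.41. Glycolytic genes fell too. Of 15 tested 12 fell and 3 rose, with changes of -3.94 for Pfkp (platelet phosphofructokinase), -2.77 for Aldoc (aldolase C) and -1.20 for Pgam1 (phosphoglycerate mutase). The 3 that rose were the glucose transporter genes Slc2a1 and Slc2a3 and Gapdh. Among the falls, Pgk1 (glycolysis) and Pdp1 (pyruvate dehydrogenase) were above background on no knockdown array. They could thus enter only through the luciferase arrays.

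Markers of other cell types moved in the same arrays. Of 18 feeder fibroblast markers 13 were detected, and their summed intensity was 8165 to 9607 in the Wdr5 knockdown, against 5270 to 6135 with luciferase, with Col1a2, Col5a2, Lum, Postn and Prrx1 not above background. For 7 of 10 primitive endoderm markers the sum was 7819 to 8534 in the knockdown, against 1973 to 2220 with luciferase, with Foxa2, Sox17 and Sox7 not above background; Pdgfra stands in both of these lists. Trophectoderm markers (8 of 10 detected) summed to 20499 to 22900 in the knockdown, against 19603 to 22648 with luciferase. Single markers went both ways, where 38.2% of all genes rose and 30.5% fell. Of the detected ones, 11 fibroblast markers rose and 2 fell, and 4 trophectoderm markers rose and 3 fell. Of the 11, Dcn, Lox and S100a4 were above background on no luciferase array, so they could enter only through the knockdown arrays. Among the detected primitive endoderm markers 4 rose, with 3.46 for Col4a1, 2 (Lama1 and Pdgfra) fell and Gata4 was not called. Col4a1 was the brightest of these in the knockdown, so it weighs most in their sum there. Its mean log2 signal was 12.50 in the knockdown, against 9.04 with luciferase. The part of these cell types, of the lower ES cell markers and of array brightness in the fall of the OXPHOS genes was not tested.

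The Oct4 comparison gave few calls among the members. On simulated data its fit found fewer of the 1.5-fold changes (10.4%) than the Wdr5 fit (86.6%). Far fewer genes were changed in those data than were called here, so these shares need not hold for the arrays themselves. Of the 79 members with a probe in the Oct4 set, 64 were tested. Of these 7 fell, 3 rose and 54 were not called (limma, adjusted p below 0.05 over 9279 genes). Of all genes tested 18.1% fell and 24.3% rose, so that the 10.9% of members that fell is not above the background. Both counts move with the processing, to 24 lower and 0 higher under scaling to a common median over all probes and to 21 lower and 8 higher on the authors' deposited log2 values. The shares of all genes called under these settings were not counted, so members cannot be set against a background there. The median change was -0.15 over the members, and -0.02 over all genes. Of the 10 calls 5 belonged to complex IV, with 3 falls and 2 rises among 13 tested members. Only 1 of the 7 falls, Ndufb11, rests on a group below background.

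Of the related genes of complex IV subunit 7a, Cox7a1 and Cox7a2 fell in the Oct4 knockdown and Cox7a2l was not called. Cox7a1 had 7.16 and 7.45 in the knockdown, against 8.32 and 8.37 with GFP (change -1.04 ± 0.16, adjusted p = 0.00577). Cox7a2 had 7.79 and 8.13 in the knockdown, against 8.91 and 8.92 with GFP (change -0.96 ± 0.17, adjusted p = 0.00854). Cox7a2l had 8.58 and 8.78 in the knockdown, against 8.23 and 8.25 with GFP, so that the knockdown arrays lay above the control arrays, with a change of 0.44 ± 0.15 (adjusted p = 0.0604). Cox7c, another small subunit, had 13.32 and 13.10 in the knockdown, against 13.76 and 14.10 with GFP (change -0.72 ± 0.18, adjusted p = 0.0273), and its second probe gave the same -0.72. Cox6b1, which faces the intermembrane space, rose and had 12.96 and 12.84 in the knockdown, against 12.09 and 12.26 with GFP (change 0.72 ± 0.15, adjusted p = 0.0137). Its second probe gave 0.95. Cox4i1 rose as well and had 14.68 and 14.67 in the knockdown, against 14.08 and 13.99 with GFP (change 0.64 ± 0.14, adjusted p = 0.0161), but its sign turned to -0.082 when arrays were scaled to a common median over all probes.

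Complexes I and V held the other calls. Ndufa12, an accessory subunit of complex I, had 10.47 and 10.39 in the knockdown, against 11.22 and 11.03 with GFP (change -0.70 ± 0.15, adjusted p = 0.0155). Ndufv2 had 7.90 and 8.17 in the knockdown, against 8.81 and 8.51 with GFP (change -0.62 ± 0.18, adjusted p = 0.0416), and Ndufb11 was at least 1.35-fold lower and not above background in the knockdown. Atp5g1, which encodes the c subunit of complex V, had 11.66 and 11.77 in the knockdown, against 12.22 and 12.30 with GFP (change -0.54 ± 0.14, adjusted p = 0.0292), while Atp5g2 (-0.12 ± 0.15) and Atp5g3 (0.20 ± 0.14) were not called. Atp5d had 10.93 and 10.79 in the knockdown, against 10.26 and 10.41 with GFP (change 0.52 ± 0.15, adjusted p = 0.0379), with -0.17 under scaling to a common median over all probes. For these called members the groups did not overlap, as was the case for 72.5% of all genes tested.

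**Figure D3:**
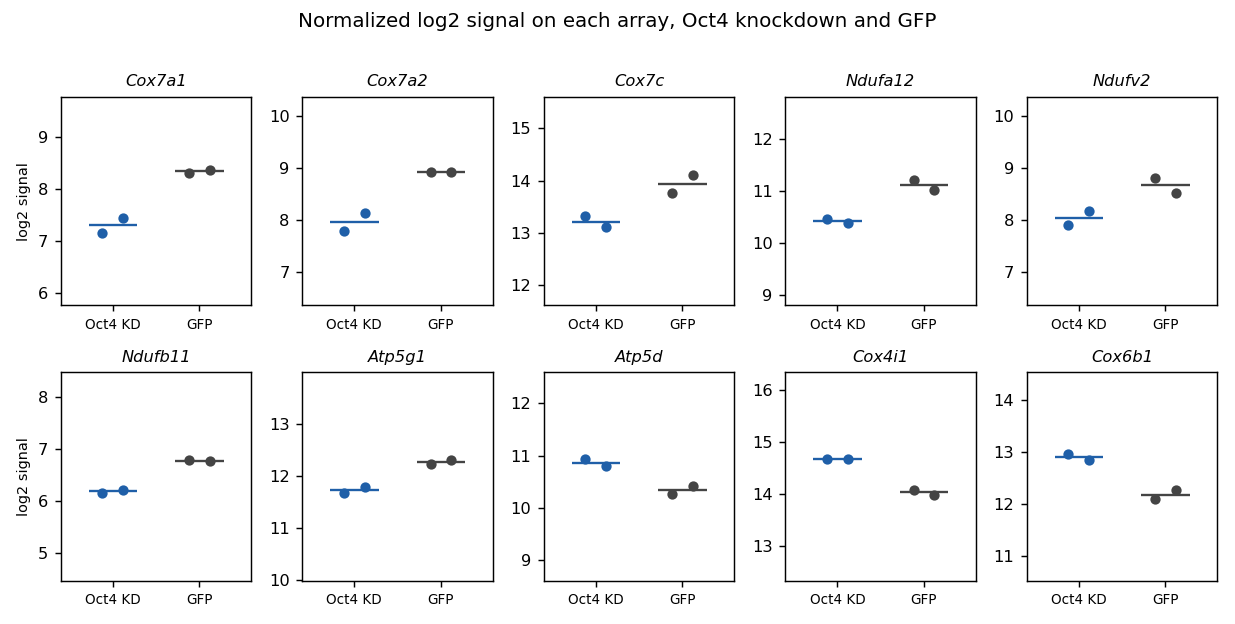
Normalized log2 signal (vertical axes, of equal span but different start) of the 10 called members on each Oct4 knockdown (KD) and GFP array, ordered from the lowest to the highest change; points are arrays and bars are group means. Cox7a1 (7.16 and 7.45 in the knockdown, against 8.32 and 8.37 with GFP) comes first and Cox6b1 (12.96 and 12.84 in the knockdown, against 12.09 and 12.26 with GFP) last.

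No member of complexes II or III was called in the Oct4 comparison. Sdhb had 10.07 and 10.32 in the knockdown, against 10.60 and 10.32 with GFP (change -0.26 ± 0.18) and Sdhc 10.66 and 10.60 in the knockdown, against 11.25 and 10.79 with GFP (change -0.39 ± 0.20). Uqcrc1 changed by -0.02 ± 0.15 and Uqcrh by -0.07 ± 0.15. Atp5f1, at -2.16 ± 0.09 in the Wdr5 comparison, changed by -0.03 ± 0.14 here and was not called. Among the other subunits and isoforms of the electron path, Ndufv1 changed by -0.37 ± 0.14, Ndufs7 by -0.28 ± 0.14, Ndufs8 by -0.14 ± 0.15, Ndufa4 by -0.05 ± 0.14 and Uqcrc2 by -0.31 ± 0.15. In complex IV, Cox5a had 12.07 and 12.05 in the knockdown, against 12.45 and 12.39 with GFP (change -0.36 ± 0.14, adjusted p = 0.086), and the groups did not overlap. Cox5b changed by -0.12 ± 0.14, Cox6a1 by -0.15 ± 0.14 and Cox8a by -0.18 ± 0.14. Cox4i2, the isoform known from lung, was above background on 1 array of each group and had 6.59 and 6.09 in the knockdown, against 6.26 and 6.89 with GFP, with overlapping groups and a change of -0.23 ± 0.28. In complex V, Atp5b had 14.65 and 14.63 in the knockdown, against 14.80 and 14.57 with GFP (change -0.04 ± 0.15), an overlap as in the Wdr5 comparison, and Atp5a1 changed by -0.29 ± 0.23. None of these was called. Changes of the 54 members not called ran from -0.43 to 0.44. The 6 detected mitochondrially encoded subunits had no call either, at adjusted p-values of 0.0688 or more. Their changes ran more widely, from -0.30 to 1.36, with a median of 0.04. No mitochondrially encoded subunit had a probe by symbol in the Wdr5 set.

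Without the first Oct4 knockdown array no member was called, and without the second 2 fell and none rose. In these fits the spread comes from the GFP arrays alone, and the lone knockdown array is assumed to vary like them. Changes of the 9 called members recomputed in this way kept their sign, with -0.90 and -1.19 for Cox7a1 and 0.65 and 0.77 for Cox6b1 without the first and without the second array. In the authors' deposited table, lower values were found for 13 of the 64 probes and higher ones for 7 at an adjusted p below 0.05, with a median of -0.09. Of all 46643 probes there, 5.34% were lower, a share that includes probes not detected here and so is no like background for the members. The share of all probes that were higher was not counted. Trophectoderm markers summed to 15660 to 17698 in the Oct4 knockdown, against 1905 to 2693 with GFP (6 of 10 detected, with Elf5, Eomes, Hand1 and Plac1 not above background), and primitive endoderm markers (7 of 10 detected) to 6721 to 7278 in the Oct4 knockdown, against 3939 to 4739 with GFP. Of the 18 feeder fibroblast markers 5 were detected, with sums of 6689 to 7276 in the Oct4 knockdown, against 3036 to 4736 with GFP, and Col1a1, Col1a2 and Col3a1 were among those not above background. Among the detected markers 5 of trophectoderm rose and 1 fell, all 7 of primitive endoderm rose, and 3 of fibroblasts rose and 2 were not called. In each of these lists 1 detected marker was above background on no array of 1 group. It could thus enter only through the other group. Of all genes tested 24.3% rose and 18.1% fell. The part of these markers in the OXPHOS values above was not tested.

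Around the complexes, 7 of 15 regulators of mitochondrial DNA and transcription fell and 1 rose in the Oct4 knockdown. The falls included Mterf3 (-1.06), a repressor of mitochondrial transcription, Ssbp1 (-0.96), which binds single-stranded mitochondrial DNA, and Tfb1m (-0.90). Of 31 assembly factors 8 fell and 1, Surf1 of complex IV, rose (0.97). Of 9 carriers and subunits outside the naming rule 2 fell, Dhodh (-1.14) and Cyc1 (-0.52). Among 18 TCA cycle and pyruvate dehydrogenase genes 4 fell and 2 rose, and among 14 glycolytic genes 4 fell and 3 rose. Of the 15 regulators 2, and of the 31 assembly factors 2, were above background on no array of 1 group and could enter only through the other. Of all genes tested 18.1% fell and 24.3% rose, and nothing particular to these lists was tested.

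**Figure D4:**
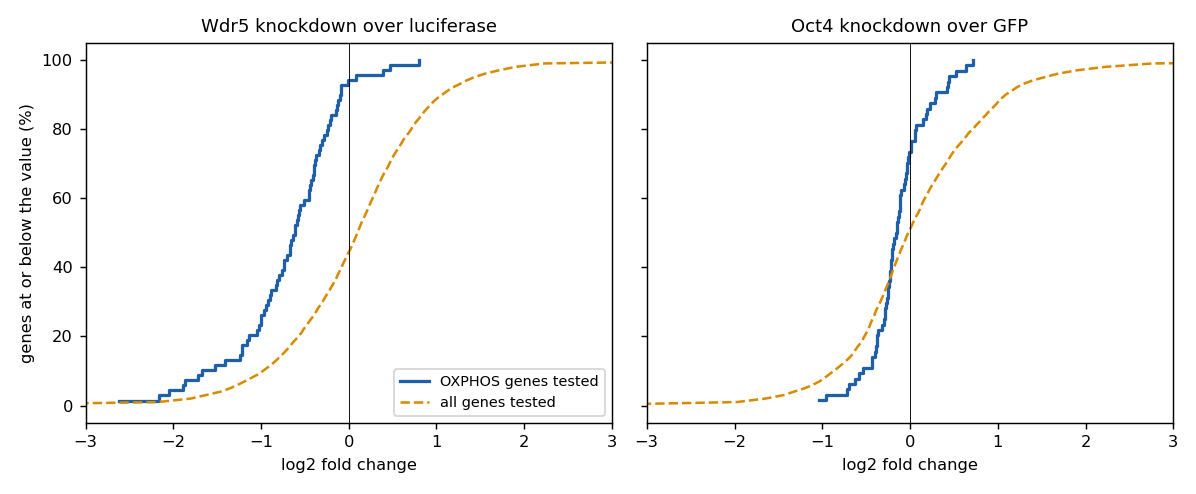
Share of genes (vertical axis, percent) at or below each log2 fold change (horizontal axis) for the tested OXPHOS genes (solid) and all genes tested (dashed), with the Wdr5 knockdown over luciferase on the left and the Oct4 knockdown over GFP on the right. The OXPHOS median is -0.61, against 0.10 for all genes on the left, and -0.15 against -0.02 on the right.

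The comparisons share no array, so the difference between their changes was tested directly, over the 56 members and 6170 genes tested in both. The change was lower in the Wdr5 comparison for 37 members and higher for 3 (limma, adjusted p below 0.05), against 28.8% and 27.9% of all genes. With each comparison's own spread, an alternative added after seeing the data, the counts were 34 and 2. Platforms, cell lines and controls differ as well as the knockdowns, and these cannot be told apart. The count is also set by the scaling, since 5 members were lower and 5 higher when each array was scaled to a common median over all probes, a setting under which the median of all genes in the Oct4 comparison moved to -0.53 and that of the members to -0.78.

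Among the widest differences were those of Cox7a2l (-2.31 ± 0.14) and Atp5f1 (-2.13 ± 0.13), each given as the Wdr5 change minus the Oct4 change in log2 with its standard error. Cox6b1 and Cox4i1 fell in the Wdr5 knockdown and rose in the Oct4 knockdown, with differences of -1.31 ± 0.13 (adjusted p = 6.13e-05) and -1.07 ± 0.12 (adjusted p = 0.00012). The 3 members with a higher change in the Wdr5 comparison were Cox7a2 (1.04 ± 0.17), Ndufv2 (0.52 ± 0.17) and Uqcrc1 (0.41 ± 0.13). Cox7a1, Ndufa12 and Ndufb11 fell in both comparisons, 3 of 56 members, against 10.1% of all genes. Ndufb11 was above background on no knockdown array of either comparison, so it could enter only through the control arrays. Over the 56 members the changes in the comparisons were hardly related (Pearson's r = 0.09, Spearman's rho = 0.10, a description across genes measured on the same arrays).

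**Figure D5:**
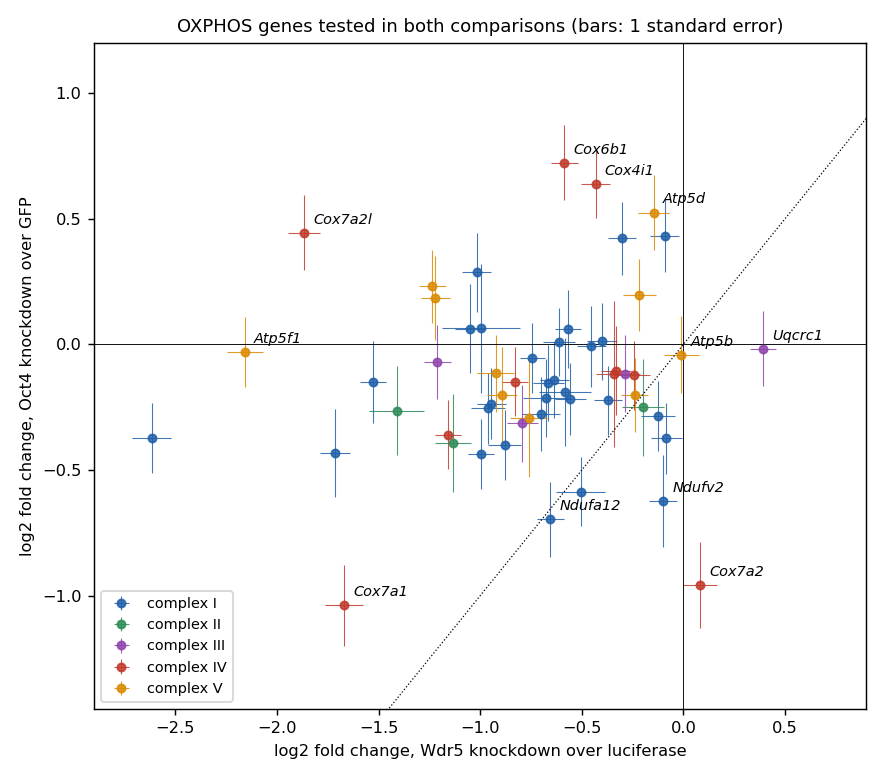
Each point is 1 of 56 members, with its log2 fold change in the Wdr5 comparison (horizontal axis) and in the Oct4 comparison (vertical axis), coloured by complex, with bars of 1 standard error; the dotted line marks equal change. Most points lie left of the dotted line, while Cox7a2 and Ndufv2 lie to its right and Cox6b1 and Cox4i1 lie above 0 vertically and below 0 horizontally.

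The members that were not tested are part of the account. In the Wdr5 set, 7 of the 84 had no probe by symbol and 8 were not above background on 2 arrays, and in the Oct4 set these were 5 and 15. Ndufs1, Uqcrfs1, Uqcrq and the tissue isoforms Cox8b and Cox8c were in both tables and above background on too few arrays in each. Without the 4 genes that are no subunits, 51 of 65 members fell and 3 rose in the Wdr5 knockdown, and 7 of 62 fell and 3 rose in the Oct4 knockdown.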

How the data were processed

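RNA of 9 arrays was measured. The authors deposited intensity values per probe, background-subtracted and not normalized between arrays, as read from the file headers and values, with a detection score (a fraction, near 1 for bright probes) beside each intensity. They also deposited log2 values per array, log2 fold changes and adjusted p-values, per the file headers. The submitters' processing notes list limma, without a version, and how the log2 values were normalized is not given in the sources used here.

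Here the intensities were taken through neqc of limma 3.58.1 (R 4.3.3), which removes background with the help of the detection scores, adds an offset (16), applies quantile normalization within a comparison and takes log2. This makes every change relative to other genes and pulls dim probes towards 0. Kept probes had a score over 0.95 on 2 or more arrays (13529 of 25697 in the Wdr5 set, 11324 of 46643 in the Oct4 set), and the brightest kept probe stood for a gene. Symbols came from accessions matched to RefSeq (GRCm38.p6) for 24202 and 25596 probes, and otherwise from the tables. Groups were compared with lmFit and eBayes, 2-sided, with Benjamini-Hochberg adjustment over all genes and a threshold of 0.05. The difference of the comparisons was a contrast over all 9 arrays. The fits were tested on simulated data, in which far fewer genes were changed than were called here. Changes of 1.5-fold were found for 86.6% of altered genes in the Wdr5 fit and 10.4% in the Oct4 fit. For 2-fold changes these shares were 100% and 79.1%. Of the calls, 8.17% in the Wdr5 fit and 8.03% in the Oct4 fit were unchanged genes.

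A gene above background on no array of a group is given only a bound: the brighter group's mean over the mean, per dim array, of the higher of the lowest detected signal and the gene's own. Array number limits the precision. The Wdr5 arrays' deposited log2 table has identifiers that matched no gene here. Alternatives covered scaling, offset, filter, probe summary, replicate number and single arrays. Replicate numbers were not taken as pairs: deviations of same-numbered arrays correlated at -0.03, -0.01 and -0.36. Members, lists and the rule for named genes were chosen with earlier results of these data known. Named were the catalytic subunits and isoforms, the 3 largest called changes per complex and list, and members called against most others; further names in the text were chosen with their values known. Counts cover all members. Some members that the rule names are given only by their change, and 1 is not reported individually here.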

Additional observations from a re-analysis of the deposited data

Results flagged for a closer look

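The change in the Wdr5 comparison was below that in the Oct4 comparison for 37 of 56 members and above it for 3 by a test of the difference itself (limma on all 9 arrays, adjusted p below 0.05), but these counts were 5 and 5 under scaling to a common median over all probes. Cox7a2l (-2.31) and Atp5f1 (-2.13) were among the widest differences, as log2 changes in the Wdr5 minus the Oct4 comparison. Cox6b1 (-1.31) and Cox4i1 (-1.07) were called in opposite directions. Cox7a2 (1.04), Ndufv2 (0.52) and Uqcrc1 (0.41) stood the other way round. Knockdown, clone, cell line, control and platform cannot be told apart in these differences.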

How the results depend on the processing

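In the Wdr5 comparison the members lower ranged from 48 to 57 and those higher from 3 to 4 under the other settings, and from 49 to 55 and 3 to 3 when 1 array was left out. Of 417 recomputed values of 35 named members 399 kept their call and direction, 9 lost the call and 9 gained one. The Oct4 calls moved more. Members lower and higher in the Oct4 comparison were 24 and 0 under scaling to a common median over all probes, where Atp5d (-0.17) and Cox4i1 (-0.082) changed sign and the median of all genes was -0.53. An offset of 50 gave 6 higher, no filter on dim probes gave 12 lower, scaling over the kept probes gave 1 higher, and the authors' deposited log2 values gave 21 lower and 8 higher. Leaving out 1 array gave 0 to 8 lower and 0 to 3 higher, with 0 and 0 without the first Oct4 knockdown array and 2 lower and 0 higher without the second. Of 367 values of 31 named members 313 kept their call and direction. The difference of the comparisons gave 5 lower and 5 higher under scaling over all probes, 23 lower and 6 higher under scaling over kept probes, and 31 to 38 lower and 1 to 3 higher without 1 array; it was 1 higher without Wdr5 knockdown replicate 1 and without either luciferase array. With replicate numbers as a block, 4 members were lower in the Oct4 comparison and 1 was higher in the difference, and the block moved no other count by over 1.5 times. The numbers do not pair the samples, and crossed numbers as a block gave 5 higher in the Oct4 comparison. Scaling over kept probes, crossed numbers, own spreads and the count without the 4 genes that are no subunits were added after seeing the data. Shares of all genes called under other scaling or on the deposited log2 values were not counted. The causes were not tested. Deposited log2 values were not run for the Wdr5 comparison or the difference, because their probes could not be matched to genes. Mean intensity was 110 to 111 on the Oct4 knockdown arrays, against 278 to 344 with GFP, while 22.1% and 25.3% of probes were detected in the Oct4 knockdown, against 22.9% and 19.3% with GFP; the part of signal level in the Oct4 calls was not tested.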

Other observations

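The 4 members that are no subunits were all called lower in the Wdr5 knockdown by the brightest probe, with changes of -0.74 for Atp5s, -0.70 for Ndufaf1, -0.41 for Atp5sl and -0.33 for Cox4nb, whose other probe gave 0.87. Paired parts of 1 complex also parted. In complex III the core gene Uqcrc1 rose by 0.39 on the log2 scale and Uqcrc2 stood at -0.79, and in complex V Atp5a1 stood at -0.76 beside Atp5b at -0.01. The Wdr5 minus Oct4 differences of these genes were 0.41 for Uqcrc1, -0.48 for Uqcrc2, -0.47 for Atp5a1 (not called) and 0.03 for Atp5b (not called).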
